A study of Homo sapiens with 15 samples.

Results

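PATU-8988T cells, an established human pancreatic cancer line, were compared after 24 h and after 4 h in 100 nM YKL-5-124, a covalent inhibitor of the kinase CDK7. The 3 libraries labelled YKL-5-124 at 24 h were set against the 3 labelled YKL-5-124 at 4 h, 6 of the 15 RNA-seq libraries of the series. The other libraries used here are 3 of cells in 100 nM THZ1 for 24 h, 3 of cells in 100 nM THZ1 for 4 h, and 3 of cells in 0.1% DMSO, the vehicle, for which the labels give no time. All came from the same line, grown in DMEM with 10% serum. There is no DMSO library labelled for either time, so time in the drug and time in culture cannot be told apart. The labels do not say whether the 3 libraries of a group came from separate cultures, so each p-value reflects the spread between libraries alone, which may be technical.

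CDK7, with cyclin H (CCNH) and MAT1 (MNAT1), forms the CDK-activating kinase, which phosphorylates the cell cycle CDKs. The same trio is part of the transcription factor TFIIH, where it phosphorylates the tail of RNA polymerase II as transcription starts. Entry into S phase depends on active CDK4, CDK6 and CDK2, which release E2F factors from the RB family, and E2F factors drive the genes of DNA replication. Transcripts with short half-lives, such as the immediate-early genes, follow changes in polymerase activity sooner than stable ones.

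Values are read counts per gene, given as CPM (counts scaled to a fixed library size) after TMM scaling, and a log2 change is 24 h over 4 h, so a positive one means higher at 24 h. Library totals were 18373599 to 22184092 counts at 24 h and 18929158 to 22869590 at 4 h. The epithelial markers KRT8 (790 to 1222 CPM over the 6 libraries), KRT18 (410 to 522 CPM) and EPCAM (10.4 to 16.2 CPM) were present, while the ductal keratin KRT19 was at 0 to 0.044 CPM and KRT7 and CDH1 stayed under 1 CPM. The 10 stromal, endothelial and immune markers summed to 0.791 to 1.78 CPM at 24 h and 0.696 to 1.89 CPM at 4 h, and CD3E and CD68 were at 0; of 8 acinar, islet and liver markers, 7 were at 0 in all 6 libraries. One library of each time stood apart from its group: MKI67, which encodes a proliferation antigen, was at 408 CPM in 24 h replicate 3 against 19.1 and 20.7 CPM in the other 24 h libraries, and at 15.6 CPM in 4 h replicate 1 against 155 and 178 CPM in the other 4 h libraries. Relative to their groups, long genes were high in 24 h replicate 3 and low in 4 h replicate 1. A DMSO library stood apart in the same measures, with MKI67 at 454 CPM in DMSO replicate 2 against 22.3 and 28.6 CPM in the other DMSO libraries and long genes high in it, so values set beside DMSO rest on a group with that spread. The pair of 24 h replicate 3 and 4 h replicate 1 is called the libraries that stand apart. Counts below are also given without that pair wherever leaving it out moved them by over 1.5 times. Without the pair, MKI67 is at 19.1 and 20.7 CPM in the 24 h libraries and at 155 and 178 CPM in the 4 h libraries. In that setting this split falls along time and cannot be told apart from the change between times.

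Of 14461 genes tested, 1333 (9.22%) rose and 1716 (11.9%) fell at 24 h relative to 4 h in YKL-5-124 (edgeR quasi-likelihood test, Benjamini-Hochberg adjusted p under 0.05). The change was at least 2-fold in 574 risen genes (3.97% of those tested) and in 321 fallen genes (2.22%). The median change over all genes was -0.03. The genes that rose had a median level of 12.8 CPM over the libraries, those that fell 36.5 CPM, and all tested genes 15 CPM; their median exonic lengths were 4547 bases for risen and 4632 bases for all tested genes. Leaving out 24 h replicate 2 left 881 risen genes and leaving out 4 h replicate 3 left 878. Without both libraries that stand apart 943 genes rose and 1020 fell. In that setting 810 of the 1333 risen genes (60.8%) and 892 of the 1716 fallen genes (52.0%) kept their call. The 24 h libraries all lay on one side of the 4 h libraries for 1326 of the 1333 risen genes and for 1701 of the 1716 fallen genes. The same held for 5934 of the 14461 genes tested and for 2907 of the 11412 not called. Called genes were selected on the same values, so this separation adds no separate support to the calls. Against DMSO the same fit called 1290 genes higher and 1839 lower at 24 h, but 8 higher and 67 lower at 4 h; these comparisons share libraries with the one between times.

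The scaling sets where zero lies. Messenger RNAs of ribosomal proteins made up 7.93% ± 1.22 of counts at 24 h and 11.2% ± 1.01 at 4 h (SD, n = 3 each), with 10.7% ± 1.43 in DMSO. Scaling each library to those mRNAs moved the median of all genes up by 0.68 and left 6763 genes called higher and 131 lower, 98.1% of calls higher against 43.7% under TMM. Scaling to library totals moved the median up by 0.17 and gave 2286 higher and 1044 lower, 68.6% higher. Changes below are therefore relative to the median gene. Of 139 genes named by rule and called, 92 kept their call under every other setting than ribosomal protein scaling and 67 under every setting tried. Under ribosomal protein scaling 17 named genes changed sign, none of which had fallen by more than 0.68 under TMM. A further 32 lost their call under that scaling in the same direction, with DYSF, PEAR1, NCAPH and DKC1 among them.

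**Figure D1:**
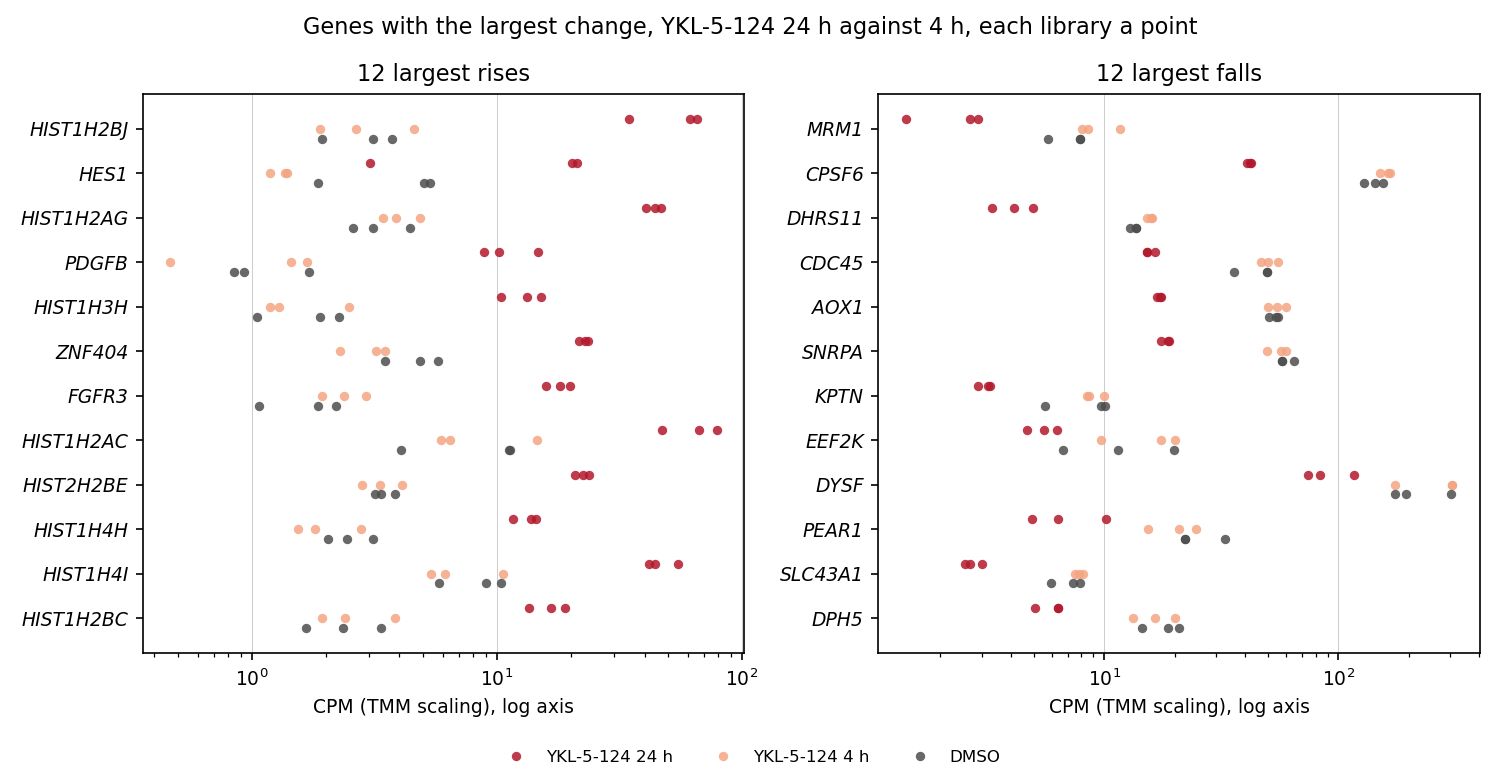
Level of the 12 protein-coding genes with the largest rises and the 12 with the largest falls, by library, in TMM-scaled CPM on a log axis; points are single libraries of YKL-5-124 at 24 h, YKL-5-124 at 4 h and DMSO, in that order. The genes were chosen as called genes at a mean of at least 5 CPM whose 24 h and 4 h libraries do not overlap, so the gap between times is set by that choice. HIST1H2BJ has the largest change among them, at 4.14.

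The largest changes were ranked among called genes at a mean of at least 5 CPM whose groups do not overlap. Of the 12 largest rises among protein-coding genes by that rule, 8 were of histone genes. Replication-dependent histone genes encode the core histones made in S phase; their mRNAs usually end in a stem-loop, some also in a poly(A) tail, and the sources used here do not give how RNA was selected. HIST1H2BJ, an H2B gene, was at 65.6, 61.1 and 34.7 CPM at 24 h, against 4.57, 2.66 and 1.89 CPM at 4 h and 3.73, 1.93 and 3.12 CPM in DMSO. That is a log2 change of 4.14 ± 0.36 (SE; adjusted p = 3.9e-06), and no 24 h library came near the 4 h range. Its neighbour HIST1H2AG, an H2A gene that starts 292 bases away on the other strand, was at 46.7, 44.0 and 40.7 CPM at 24 h, against 4.84, 3.87 and 3.43 CPM at 4 h (log2 change 3.43 ± 0.29, adjusted p = 3.7e-06). On GRCh38 HIST1H2BJ (ENSG00000124635) lies at chr6:27125897-27132750 on the minus strand and HIST1H2AG (ENSG00000196787) at chr6:27133042-27135291 on the plus strand. A second divergent pair rose too, HIST1H2BC by 2.58 ± 0.36 and HIST1H2AC by 2.84 ± 0.43; HIST1H2AC was at 79.1, 66.5 and 47.1 CPM at 24 h, against 14.6, 6.42 and 5.90 CPM at 4 h.

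Of 28 histone genes tested, 17 rose and 0 fell, with a median change of 1.85, which is 1.88 above that of all genes. HIST1H2BK, an H2B gene chosen after values were seen, was at 183 ± 37.1 CPM at 24 h and 32.8 ± 5.96 CPM at 4 h (SD, n = 3 each). The linker histone gene HIST1H1C, also chosen after values were seen, was at 93.2 ± 21.4 CPM at 24 h and 19.2 ± 5.10 CPM at 4 h. HIST1H3H, HIST1H4H, HIST1H4I and HIST2H2BE rose by 2.96, 2.69, 2.66 and 2.71. The 11 members that did not pass the test include HIST1H4C (0.05), HIST1H1E (-0.57) and HIST2H2AC (-0.67). Copies of the core histones are nearly identical in sequence, and how shared reads were counted is not given here, so the split of reads among single histone genes is uncertain.

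The other large rises were of diverse function. HES1, a transcriptional repressor induced by Notch and by serum, was at 21.2, 20.2 and 3.04 CPM at 24 h, against 1.39, 1.18 and 1.36 CPM at 4 h; DMSO libraries held 5.33, 1.86 and 5.06 CPM. Its log2 change was 3.49 ± 0.58 (adjusted p = 0.00074), and 24 h replicate 3 lies nearer to the 4 h libraries than to its own group. PDGFB, a growth factor, was at 8.89, 10.2 and 14.8 CPM at 24 h, against 0.465, 1.44 and 1.67 CPM at 4 h. FGFR3, a fibroblast growth factor receptor, was at 18.2, 15.9 and 19.9 CPM at 24 h, against 1.94, 2.91 and 2.38 CPM at 4 h, a log2 change of 2.89 ± 0.23. ZNF404, a zinc-finger gene that overlaps other tested transcripts, rose by 2.91 ± 0.21.

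By the same rule, the 12 largest falls were smaller than the 12 largest rises, that of MRM1, a mitochondrial rRNA methyltransferase, having a log2 change of -2.01. Over all genes tested, without that rule, changes ran from -7.58 to 5.14. CPSF6 (chr12:69239537-69274358, plus strand), a subunit of the cleavage factor that helps to choose polyadenylation sites, was at 42.3, 42.0 and 40.7 CPM at 24 h, against 165, 164 and 151 CPM at 4 h and 155, 128 and 143 CPM in DMSO. Its log2 change of -1.94 ± 0.09 (adjusted p = 1.1e-08) came with very little spread within either time. SNRPA, which encodes a protein of the U1 spliceosomal particle, was at 17.6, 19.0 and 18.7 CPM at 24 h, against 49.6, 57.0 and 60.0 CPM at 4 h. DHRS11, a dehydrogenase, fell by 1.92 and AOX1, aldehyde oxidase, by 1.67. DYSF (dysferlin, membrane repair), KPTN, PEAR1, SLC43A1 (an amino acid transporter) and DPH5 (diphthamide synthesis) fell by 1.52, 1.53, 1.51, 1.5 and 1.5, in that order. CDC45, described with the replication genes, and EEF2K, the kinase of elongation factor 2, complete the 12. EEF2K had a log2 change of -1.52 (adjusted p = 0.012), a call that ended without 24 h replicate 1 (-1.42, adjusted p = 0.053) and without 4 h replicate 3 (-1.31, adjusted p = 0.055).

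Of 2249 tested genes of biotypes other than protein-coding, 195 (8.67%) rose and 134 (5.96%) fell. The largest rises by the same rule were CTD-2630F21.1 (2.43), RP11-362F19.1 (1.83) and RP11-196G18.22 (1.80), the last on the same strand as and overlapping HIST2H2BE. The largest falls by that rule were SNHG4 (-1.88), CASC8 (-1.60) and the pseudogene HNRNPA1P48 (-1.52). Reads of a pseudogene and of its parent may not be separable. Of 153 genes named by rule, 42 overlap another tested gene, SNRPA, JUNB, GTF2H3 and RPL27A among those described here, and as the strand setting of the counting is not given, their values may include reads of the neighbour.

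Counts of list members are to be read beside the 9.22% of all genes that rose and the 11.9% that fell. Some lists described below had 0 members called in at least one direction by edgeR. At an unadjusted p under 0.05 the same direction held 1 member of the histone, ERK output and NF-kB lists, and DESeq2 called 1 ERK output lower; for the others, which are the replication, immediate-early, sterol, ribosome biogenesis, ribosomal protein, small nucleolar RNA host, mitochondrial, stromal and acinar lists, both counts were 0.

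**Figure D2:**
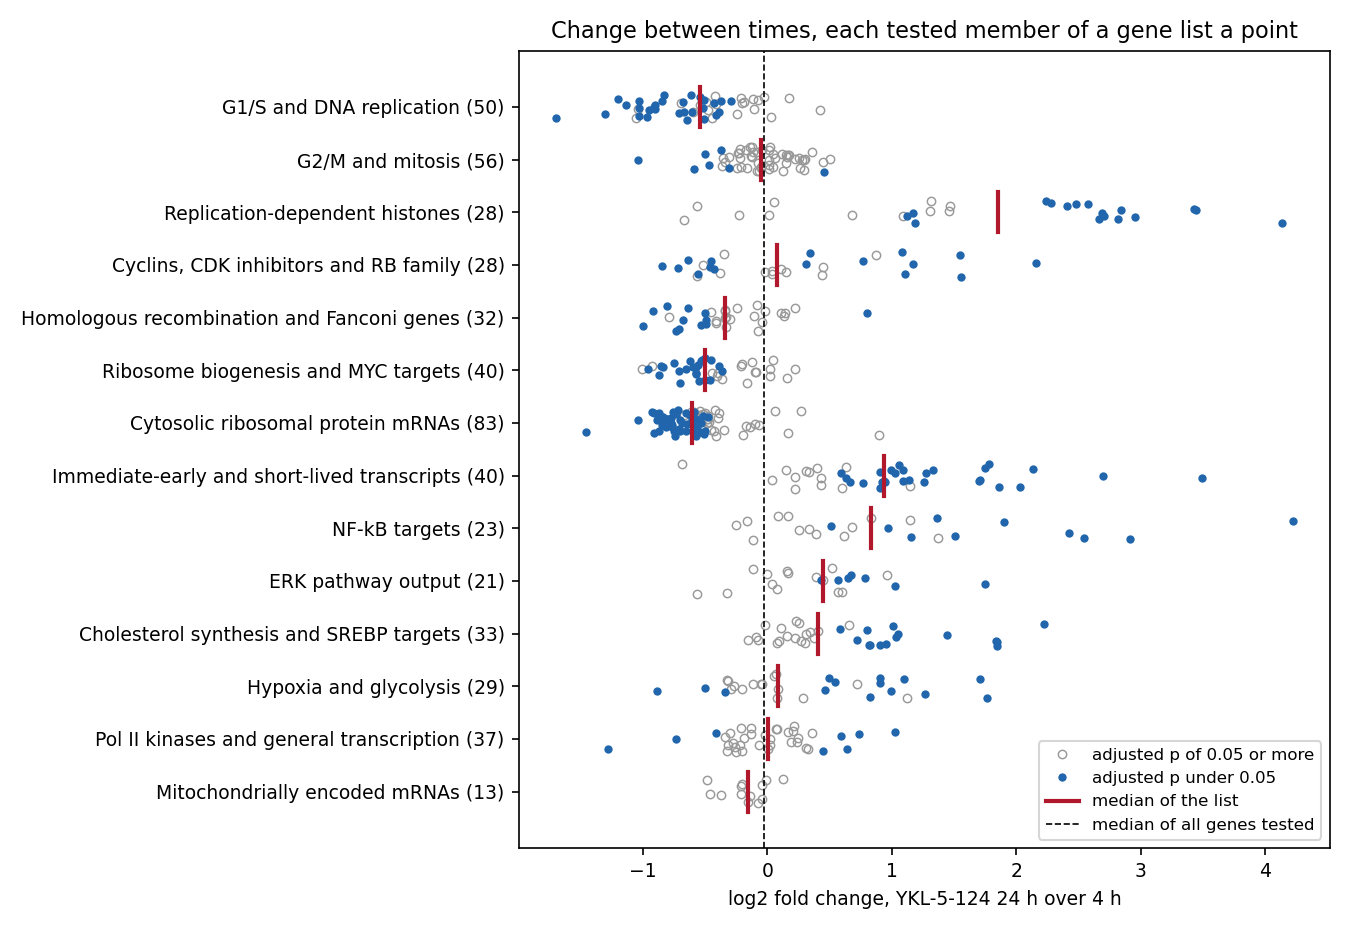
Log2 change between times (24 h over 4 h) of each tested member of 14 gene lists; bars mark each list's median and the dashed line the median of all 14461 genes. Histone (median 1.85), immediate-early (0.94) and NF-kB (0.84) members sit to the right of that line; G1/S (-0.54), ribosome biogenesis (-0.50) and ribosomal protein (-0.60) members sit to the left under TMM, with medians of 0.14, 0.19 and 0.05 under ribosomal protein scaling.

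Genes of S phase entry and DNA replication fell. Of 50 tested, 29 fell and 0 rose, beside 11.9% of all genes that fell, and the median was -0.54 under TMM and 0.14 under ribosomal protein scaling, in both cases 0.51 to 0.52 below the median of all genes. CDC45 and the MCM proteins make up the helicase that opens DNA at origins. CDC45 was at 16.4, 15.2 and 15.3 CPM at 24 h, against 55.4, 46.9 and 49.9 CPM at 4 h and 49.6, 36 and 49.8 CPM in DMSO (log2 change -1.70 ± 0.16, adjusted p = 6.9e-06). MCM6 was at 69.7, 65.5 and 74.7 CPM at 24 h, against 173, 174 and 172 CPM at 4 h and 173, 168 and 169 CPM in DMSO (-1.31 ± 0.08, adjusted p = 3.4e-07). For both genes the 4 h libraries were within or close to the DMSO range and the 24 h libraries were far below it. POLE2, a subunit of DNA polymerase epsilon, fell by 1.20.

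Further fallen members, read from the whole list, were the polymerase alpha subunit POLA1 (-1.14), the maintenance methyltransferase DNMT1 (-1.05), the factors E2F1 (-1.03) and E2F2 (-1.04), MCM3 (-1.04), MCM7 (-1.04), the sliding clamp PCNA (-0.95) and the clamp loader subunit RFC2 (-0.97). Members that did not pass the test include CDC25A (0.03), FEN1 (-0.11) and GINS4 (0.42). The list's median level relative to the DMSO mean was -0.68, -0.67 and -0.68 in the 24 h libraries and 0.02, -0.06 and -0.08 in the 4 h libraries, so both libraries that stand apart lie with their groups here. Without both of them 23 members fell.

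The promoters of the replication genes were searched for the letters of E2F sites. The 250 bases before each gene's start, from RefSeq on GRCh38.p14, were read on both strands for TTTCCCGC, TTTGGCGC and TTTCGCGC. One or more was found in 13 of 25 fallen list members with a promoter in the table (52%) and in 4 of 17 members not called (23.5%). The share was 2.38% of 27305 promoters, 3.97% of the 9803 tested genes that have one, 5.46% of 1263 fallen genes and 2.77% of 901 risen genes. Windows of 3 fallen members that hold a match are shown, 5′ to 3′ along the gene, with matches in capitals. They were taken in order of change after the promoters of 1 chromosome were set aside. MCM6 is at chr2:135876444-135876693 (minus strand), POLA1 at chrX:24693668-24693917 (plus) and MCM3 at chr6:52284743-52284992 (minus). A match is a run of letters, not a bound site.
MCM6: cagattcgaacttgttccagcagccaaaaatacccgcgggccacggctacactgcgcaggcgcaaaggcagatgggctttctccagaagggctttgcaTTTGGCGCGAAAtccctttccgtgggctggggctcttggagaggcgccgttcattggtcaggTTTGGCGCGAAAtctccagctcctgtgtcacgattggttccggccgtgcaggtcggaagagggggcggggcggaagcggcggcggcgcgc
POLA1: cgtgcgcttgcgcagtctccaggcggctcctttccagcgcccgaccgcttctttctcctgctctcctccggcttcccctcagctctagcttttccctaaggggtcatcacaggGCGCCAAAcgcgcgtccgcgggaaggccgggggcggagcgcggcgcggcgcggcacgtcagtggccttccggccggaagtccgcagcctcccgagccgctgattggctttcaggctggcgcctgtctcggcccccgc
MCM3: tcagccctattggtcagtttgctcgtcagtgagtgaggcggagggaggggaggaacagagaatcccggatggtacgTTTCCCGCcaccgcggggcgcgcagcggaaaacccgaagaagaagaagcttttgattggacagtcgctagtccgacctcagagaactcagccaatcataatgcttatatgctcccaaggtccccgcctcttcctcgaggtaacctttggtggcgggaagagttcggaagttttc
In MCM6 the capitals form a pair of 12-base blocks, in each of which 2 matches on opposite strands overlap, while POLA1 and MCM3 have 1 match each. CHR elements (TTTGAA), found upstream of genes expressed in G2 and mitosis, were in 1 of 42 promoters of the replication list and in 25 of 49 (51.0%) of the G2/M list, beside 8.08% of tested genes.

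Of 56 genes of G2 and mitosis, 1 rose (1.79%, beside 9.22% of all genes) and 6 fell (10.7%, near the 11.9% of all genes), with a median of -0.05. The single rise was of CDC25B, a phosphatase that activates CDK1, by 0.45, and 0 rose without the pair of libraries that stand apart. NCAPH, a condensin subunit, was the clearest fall, at 39.5, 41.5 and 46.6 CPM at 24 h, against 83, 86.2 and 93.7 CPM at 4 h (log2 change -1.04 ± 0.17, adjusted p = 0.00064). MYBL2, a factor of the complex that activates mitotic genes, fell by 0.59 under TMM and had a log2 change of 0.09 under ribosomal protein scaling. CDK1 (-0.23), CCNB1 (0.06), PLK1 (0.01), AURKA (0.18) and FOXM1 (0.25), none of which passed the test, lay near zero. The count of fallen members was 2 to 5 when single libraries were left out, being 3 without 24 h replicate 1, 2 without 24 h replicate 2, 3 without 24 h replicate 3, 2 without 4 h replicate 2 and 3 without 4 h replicate 3. Scaling to library totals gave 9 risen and 2 fallen members.

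Of 28 cyclins, CDK inhibitors and RB family members, 9 rose and 7 fell. The list holds 7 CDK inhibitor genes of the CDKN1 and CDKN2 families, of which 6 rose, 0 fell and 1 did not pass the test. CDKN1A, which encodes p21, was at 164, 162 and 138 CPM at 24 h, against 65.3, 40.4 and 52.2 CPM at 4 h and 49.5, 30.5 and 46.3 CPM in DMSO (log2 change 1.55 ± 0.21, adjusted p = 0.00015). CDKN1C, which encodes p57, was at 12.9, 13.2 and 9.47 CPM at 24 h, against 3.02, 2.25 and 2.69 CPM at 4 h (2.16 ± 0.26). CCNG2, a cyclin linked to growth arrest, was at 59.1, 58.0 and 56.0 CPM at 24 h, against 22.1, 19.8 and 17.2 CPM at 4 h (1.55 ± 0.17). The groups do not overlap for any of these genes. The other inhibitors that rose had log2 changes of 1.17 (CDKN2D), 1.11 (CDKN2C), 1.08 (CDKN2B) and 0.77 (CDKN1B). Of the factors that act with the RB family, E2F4 fell by 0.85 and RBL1, which encodes p107, by 0.72; the count of fallen members was 4 without 24 h replicate 2, without 24 h replicate 3 or without 4 h replicate 2.

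Genes of DNA repair by recombination fell in part. Of 32 homologous recombination and Fanconi genes, 11 fell and 1 rose, with a median of -0.34; 6 fell without the pair of libraries that stand apart, and ribosomal protein scaling gave a median of 0.35 with 9 risen and 0 fallen. The nuclease FAN1 fell by 1.00 ± 0.13 and NBN, a subunit of the MRN complex that binds broken ends, by 0.81 ± 0.09. FANCM, a translocase, rose by 0.80 ± 0.15, to 21.2, 21.1 and 23.1 CPM at 24 h, against 13.4, 12.1 and 12 CPM at 4 h; DMSO libraries held 19.1, 20.3 and 18.8 CPM, so the 4 h libraries lie below both, with a log2 change at 4 h against DMSO of -0.63 that did not pass the test (adjusted p = 0.081). Of 26 genes of the ATR checkpoint 5 fell and 1 rose. The fork protection gene TIMELESS was at 53.6, 58.0 and 61.9 CPM at 24 h, against 99.9, 122 and 116 CPM at 4 h, and PKMYT1, an inhibitory kinase of CDK1, fell by 1.20. The single rise, of TP53BP1 (0.54), was not called without 24 h replicate 3 or without 4 h replicate 1, and 2 falls were called without both.

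Of 26 targets of p53, 6 rose (23.1%, beside 9.22% of all genes) and 4 fell (15.4%, beside 11.9%), and the median of -0.03 was that of all genes. Besides CDKN1A, TP53INP1 was at 14.1, 12 and 15.7 CPM at 24 h, against 3.45, 5.2 and 4.45 CPM at 4 h, and BBC3, which encodes the cell death protein PUMA, rose by 1.65 ± 0.30. DDB2, a subunit of a damage sensor, was at 21.4, 22.4 and 16.3 CPM at 24 h, against 56.3, 48.8 and 51.4 CPM at 4 h (-1.38 ± 0.18, adjusted p = 0.00011). The death receptor FAS fell by 0.89 and the pore former BAX by 0.76. MDM2, the ligase that degrades p53, had a log2 change of -0.28 and did not pass the test. Of 22 BCL2 family genes 6 rose and 3 fell; BIK, which promotes cell death, rose by 1.40 ± 0.33 and BNIP3L by 0.68 ± 0.12, while MCL1, a short-lived survival factor, had a change of 0.15.

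Immediate-early and other short-lived transcripts rose as a group. Of 40 tested, 27 rose and 0 fell, beside 9.22% of all genes that rose, with a median of 0.94. FOSB, a subunit of the AP-1 factor, was at 2.03, 1.75 and 1.74 CPM at 24 h, against 0.232, 0.295 and 0.308 CPM at 4 h and 0.355, 0.464 and 0.843 CPM in DMSO. JUNB, another AP-1 subunit, was at 32.6, 34.1 and 19.4 CPM at 24 h, against 8.56, 5.79 and 6.74 CPM at 4 h and 5.64, 4.57 and 6.40 CPM in DMSO (log2 change 2.03 ± 0.23, adjusted p = 3.3e-05). JUNB at 4 h thus lay near DMSO, and at 24 h above it. IER3 was at 116, 110 and 69.5 CPM at 24 h, against 38.9, 23.2 and 25.6 CPM at 4 h and 59.3, 37.5 and 59.6 CPM in DMSO. The list's median relative to the DMSO mean was 0.52, 0.51 and 0.41 at 24 h and -0.42, -0.32 and -0.39 at 4 h, so the list lay below DMSO at 4 h and above it at 24 h in every library. MYC (0.22), JUN (0.33) and NR4A1 (0.22) did not pass the test.

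Of 23 NF-kB targets 10 rose (43.5%, beside 9.22% of all genes) and 0 fell, with a median of 0.84. ICAM1, an adhesion molecule, was at 8.54, 7.67 and 8.60 CPM at 24 h, against 2.36, 2.03 and 2.25 CPM at 4 h (1.90 ± 0.22, adjusted p = 4.3e-05), the chemokine gene CXCL2 rose by 2.42 ± 0.39 and TNFAIP2 by 1.51 ± 0.18. TNF, at low counts and chosen after its value was seen, had a change of 4.22. Of 21 ERK pathway outputs 7 rose (33.3%) and 0 fell, and 4 rose without the pair of libraries that stand apart. DUSP6, a phosphatase that acts on ERK, was at 85.0, 84.6 and 77.7 CPM at 24 h, against 45.6, 52.9 and 44.9 CPM at 4 h and 70.0, 55.4 and 68.8 CPM in DMSO.

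Of 33 genes of sterol and fatty acid synthesis, 15 rose (45.5%, beside 9.22% of all genes), 18 did not pass the test and 0 fell, with a median of 0.41. HMGCS1, which makes HMG-CoA, was at 244, 239 and 189 CPM at 24 h, against 52.0, 47.1 and 45.0 CPM at 4 h and 62.7, 55.8 and 61.9 CPM in DMSO (log2 change 2.22 ± 0.14, adjusted p = 2.5e-07). INSIG1, which holds the SREBP machinery in the endoplasmic reticulum when sterols are plentiful, was at 57.3, 54.7 and 41.8 CPM at 24 h, against 15.6, 13.9 and 13.1 CPM at 4 h (1.85 ± 0.18). Both genes were at least 2-fold above DMSO at 24 h, and no library of one time reached the range of the other.

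Further members had log2 changes of 1.84 (MSMO1), 1.44 (IDI1), 1.05 (FDFT1), 1.03 (MVK) and 1.01 (SQLE), all enzymes of the pathway. The fatty acid genes ACACA (-0.08), ACLY (0.08) and SCD (0.35) and the factors SREBF1 (0.25) and SREBF2 (0.22) did not pass the test. The list's median relative to the DMSO mean was 0.59, 0.60 and 0.50 in the 24 h libraries and 0.01, 0.08 and 0.00 in the 4 h libraries.

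The CCAAT box, the site of NF-Y, is a common partner of sterol response elements. It was searched as CCAAT on both strands and stood in 10 of 11 risen members with a promoter in the table (90.9%) and in 8 of 15 not called (53.3%), beside 33.0% of all promoters and 34.9% of those of tested genes. Other lists held it too, in 35 of 49 promoters of the G2/M list (71.4%) and 23 of 42 of the replication list (54.8%), against 18 of 26 of the sterol list (69.2%). The element core CACCCCAC was in 1 of 26 list members, 0 of the 11 risen ones, and in 2.37% of all promoters. Windows of 3 risen members that hold a CCAAT box are shown, with boxes in capitals. They were taken in order of change after the promoters of 1 chromosome were set aside. HMGCS1 is at chr5:43313413-43313662 (minus strand), INSIG1 at chr7:155297628-155297877 (plus) and MSMO1 at chr4:165327419-165327668 (plus).
HMGCS1: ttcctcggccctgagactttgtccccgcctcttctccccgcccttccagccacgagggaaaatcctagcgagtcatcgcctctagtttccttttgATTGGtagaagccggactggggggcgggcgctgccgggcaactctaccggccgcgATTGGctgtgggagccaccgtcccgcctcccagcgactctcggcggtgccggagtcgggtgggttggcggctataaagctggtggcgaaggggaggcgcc
INSIG1: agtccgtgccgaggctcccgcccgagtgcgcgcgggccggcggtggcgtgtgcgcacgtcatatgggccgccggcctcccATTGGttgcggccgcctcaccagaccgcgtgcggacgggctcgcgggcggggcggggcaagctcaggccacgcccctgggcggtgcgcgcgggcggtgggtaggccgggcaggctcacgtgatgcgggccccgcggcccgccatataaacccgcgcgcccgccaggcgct
MSMO1: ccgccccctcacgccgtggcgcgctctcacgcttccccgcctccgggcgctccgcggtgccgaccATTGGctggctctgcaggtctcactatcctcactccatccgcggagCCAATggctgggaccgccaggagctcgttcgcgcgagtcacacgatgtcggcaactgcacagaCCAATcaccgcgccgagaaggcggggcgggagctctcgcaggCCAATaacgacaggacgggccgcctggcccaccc
The boxes read CCAAT in the gene's direction or ATTGG on the other strand; MSMO1 has 4, HMGCS1 has 2 and INSIG1 has 1.

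Genes of ribosome production fell. Of 40 ribosome biogenesis genes and MYC targets, 23 fell and 0 rose, with a median of -0.50 under TMM and 0.19 under ribosomal protein scaling. NPM1, a nucleolar chaperone, was at 2251, 2107 and 1624 CPM at 24 h, against 4303, 3396 and 3225 CPM at 4 h (-0.87 ± 0.17). DKC1, the pseudouridine synthase of small nucleolar particles, was at 95.2, 95.1 and 98.4 CPM at 24 h, against 182, 191 and 188 CPM at 4 h and 183, 188 and 193 CPM in DMSO (-0.96 ± 0.10, adjusted p = 1.6e-05). RRP12 fell by 0.86. In both libraries that stand apart the values lie with their group for DKC1, and without the pair 15 members fell.

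Messenger RNAs of the ribosomal proteins themselves, a list added after values were seen, gave 52 fallen and 0 risen of 83, with a median of -0.60 under TMM and 0.05 under ribosomal protein scaling. RPL27A was at 1220, 1198 and 922 CPM at 24 h, against 2221, 2035 and 2109 CPM at 4 h (-0.93 ± 0.14, adjusted p = 0.00035), and RPL23A fell by 1.04. The list's median relative to the DMSO mean was -0.37, -0.42 and -0.90 in the 24 h libraries and 0.25, -0.07 and 0.03 in the 4 h libraries, with 24 h replicate 3 lowest. Without that library 32 fell, and 20 without it and 4 h replicate 1. Of 19 host genes of small nucleolar RNAs, also listed after values were seen, 5 fell and 0 rose (median -0.51, and 0.13 under ribosomal protein scaling), 3 without 24 h replicate 3 and 2 without both; SNHG16 fell by 0.91. Of 13 mitochondrially encoded mRNAs 0 rose and 0 fell (median -0.16; edgeR), and mitochondrial genes took 1.13% ± 0.240 of counts at 24 h and 1.15% ± 0.168 at 4 h.

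**Figure D3:**
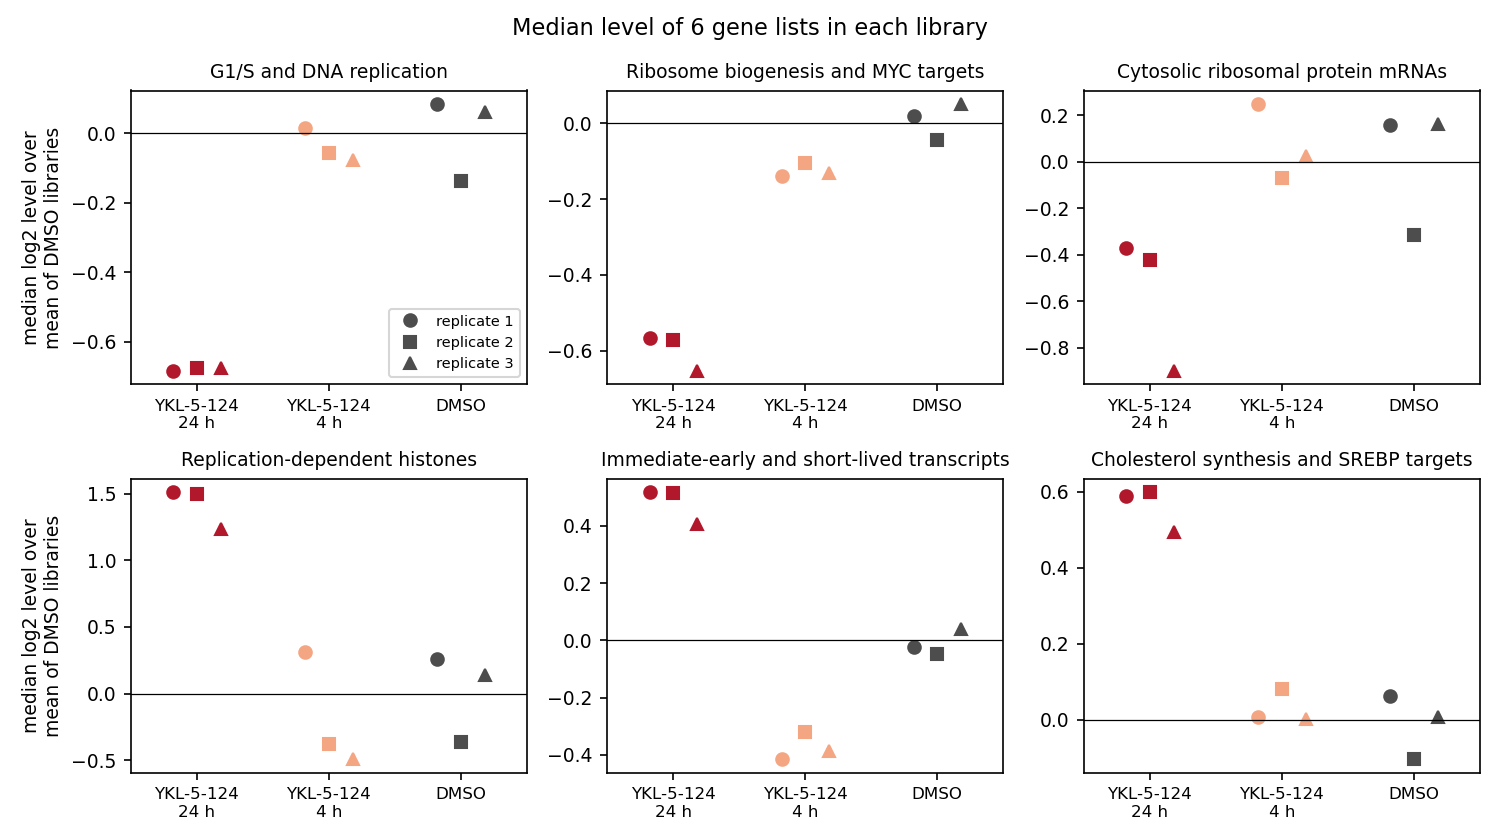
Median log2 level of the members of 6 lists in each library, relative to the mean of the DMSO libraries; points are single libraries of YKL-5-124 at 24 h, YKL-5-124 at 4 h and DMSO. G1/S medians lie at -0.68 to -0.67 at 24 h and histone medians up to 1.51, apart from the 4 h libraries, while 24 h replicate 3 is lowest for the ribosomal protein mRNAs at -0.90; ribosomal protein scaling lifts all 24 h points.

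The transcript of the targeted kinase did not pass the test. CDK7 was at 75.4, 65.2 and 54.5 CPM at 24 h, against 62.3, 52.1 and 49.9 CPM at 4 h and 67.1, 54.3 and 67.3 CPM in DMSO. Its log2 change of 0.25 ± 0.15 (adjusted p = 0.27) was called under library totals (0.41), under ribosomal protein scaling (0.91) and with the length slope as a covariate (0.24). Its partners CCNH (-0.30) and MNAT1 (-0.06) and the related kinases CDK9 (-0.21), CDK12 (0.22) and CDK13 (0.16) did not pass either. However, CCNH was called lower with the length slope as a covariate and CDK12 higher under ribosomal protein scaling (0.92). The length slope is the trend with gene length of a library's departure from its group, taken from the same counts. It averages 0 in each group, so as a covariate it takes up spread within groups and hardly moves the changes. The drug acts on the protein, which was not measured. Of 37 genes of polymerase II kinases and general transcription 5 rose (13.5%, beside 9.22% of all genes) and 3 fell (8.11%, beside 11.9%). The median change of the list was 0.008, near that of all genes (-0.03). HEXIM1, the inhibitor of the elongation kinase P-TEFb, was at 103, 112 and 100.4 CPM at 24 h, against 53.9, 50.9 and 50.3 CPM at 4 h and 44.9, 36.8 and 46.3 CPM in DMSO (1.02 ± 0.14, adjusted p = 0.00016). GTF2H3, a core subunit of TFIIH, was at 29.5, 30.2 and 26.1 CPM at 24 h, against 70.2, 75.0 and 63.0 CPM at 4 h and 59.7, 63.3 and 71.0 CPM in DMSO (-1.28 ± 0.10, adjusted p = 3.5e-06). The count of risen members was 3 without 24 h replicate 1 or 24 h replicate 2 and 2 without 4 h replicate 3; without both libraries that stand apart it was 3, with 1 fallen.

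Of 20 heat shock genes 4 rose and 4 fell, 20% each way beside 9.22% and 11.9% of all genes. HSPA1A, an inducible HSP70 with a near-identical copy in HSPA1B, was at 173, 177 and 176 CPM at 24 h, against 36.7, 57.5 and 56.8 CPM at 4 h (1.80 ± 0.24), and DNAJB1, its co-chaperone, rose by 0.58. The abundant HSP90AB1 (-0.64) and mitochondrial HSPD1 (-0.55) fell under TMM and had log2 changes of 0.04 and 0.14 under ribosomal protein scaling; 2 members fell without 24 h replicate 3 or without 4 h replicate 3. Of 29 genes of hypoxia and glycolysis 11 rose (37.9%) and 3 fell (10.3%). NDRG1 was at 274, 276 and 235 CPM at 24 h, against 91.6, 75.6 and 73.4 CPM at 4 h (1.71 ± 0.16), PFKFB4 rose by 1.77 and ANKRD37 by 1.27, whereas the enolase ENO2 fell by 0.89. The glycolytic enzymes PGK1 (0.08), LDHA (-0.12) and TPI1 (0.07) did not pass the test.

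Of 30 mesenchymal genes 8 rose (26.7%) and 2 fell (6.67%, below the 11.9% of all genes); without both libraries that stand apart 4 rose, and 1 fell without 24 h replicate 1, 24 h replicate 2, 4 h replicate 2 or 4 h replicate 3. THBS1, which encodes the matrix glycoprotein thrombospondin, was at 13.8, 12.9 and 24.2 CPM at 24 h, against 7.86, 9.63 and 8.37 CPM at 4 h (0.98 ± 0.23, adjusted p = 0.0074). The 24 h libraries all lie above the 4 h libraries, 24 h replicate 3 highest; the change was 0.63 without it and 0.58 without both libraries that stand apart, where it was not called. VIM, vimentin, had a change of -0.08. Of 24 YAP and TEAD targets 7 rose and 1 fell, 0 fallen without both libraries. CYR61 was at 550, 591 and 768 CPM at 24 h, against 253, 324 and 317 CPM at 4 h and 449, 510 and 441 CPM in DMSO, ANKRD1 rose by 1.39 and NUAK2, a kinase, by 1.32. Of 15 epithelial genes 4 rose and 1 fell, 2 risen without both libraries and 0 fallen without 4 h replicate 2; JUP (plakoglobin) rose by 1.03 and KRT80 by 0.75. Of 14 tubulin genes 4 rose and 1 fell, 0 fallen without 4 h replicate 3 or without both libraries; TUBA1A was at 194, 183 and 115 CPM at 24 h, against 62.3, 49.2 and 48.0 CPM at 4 h.

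The remaining lists had at most 7 called members in either direction. Of 33 lysosome and autophagy genes 3 rose (9.09%) and 2 fell (6.06%), shares at or below those of all genes; the sialidase NEU1 was at 56.1, 53.8 and 52.7 CPM at 24 h, against 18.6, 19.1 and 19.6 CPM at 4 h (1.5 ± 0.14), and 1 fell without any single 24 h library, without 4 h replicate 1 or without 4 h replicate 2. Of 31 interferon-stimulated genes 7 rose and 4 fell. DDX58, the RNA sensor RIG-I, rose by 0.95 and DDX60 fell by 0.85; 3 rose without 24 h replicate 2, 4 without 4 h replicate 1 or 4 h replicate 2, and 4 rose and 2 fell without both libraries that stand apart. Of 17 clock genes 5 rose and 1 fell, with 1 to 3 risen when any single library was left out and 2 without both. BHLHE40 was at 37.2, 36.9 and 35 CPM at 24 h, against 9.18, 9.26 and 9.55 CPM at 4 h and 18.2, 18.1 and 19.3 CPM in DMSO (1.96 ± 0.09, adjusted p = 1.1e-08), below DMSO at 4 h and above it at 24 h in every library. The single fall, of PER2 (-1.06), was not called without 24 h replicates 1 or 2 or without 4 h replicates 2 or 3.

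Of 30 genes of the ATF4 and unfolded protein responses 6 fell and 2 rose. PSAT1, of serine synthesis, was at 261, 264 and 208 CPM at 24 h, against 514, 431 and 418 CPM at 4 h. Leaving out single libraries gave 2 to 7 fallen and 0 to 2 risen members: 2 fell without 24 h replicate 1, 4 h replicate 2 or 4 h replicate 3, and 3 without 24 h replicate 2, without 24 h replicate 3 or without both libraries that stand apart; 0 rose without 24 h replicate 1, 24 h replicate 2 or 4 h replicate 2, and 1 without 4 h replicate 1, without 4 h replicate 3 or without both. Of 23 NRF2 targets 5 fell and 1 rose, with 2 to 3 fallen and 0 risen without any single library, and 2 and 0 without both that stand apart. GCLM, of glutathione synthesis, was at 77.7, 70.9 and 64.2 CPM at 24 h, against 179, 144 and 125 CPM at 4 h (-1.07 ± 0.17). Of 15 antigen presentation genes 4 fell and 2 rose; 1 fell without 24 h replicate 1 and 2 without 4 h replicate 2 or 4 h replicate 3, and 1 rose without 24 h replicate 1, 24 h replicate 2, 4 h replicate 2 or 4 h replicate 3. Of the 3 stromal and immune genes tested and the 1 acinar gene tested, 0 rose and 0 fell (edgeR), and 1 stromal or immune gene fell without 24 h replicate 1.

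THZ1, an earlier covalent CDK7 inhibitor that also inhibits CDK12 and CDK13, was given at the same concentration and times, and the change between times was tested against that in YKL-5-124 with no library shared. The change in YKL-5-124 was higher for 4489 genes (31.0%) and lower for 3842 (26.6%). The THZ1 libraries were uneven too. At 4 h in THZ1, MKI67 was at 10.9 CPM in replicate 1 against 337 and 89.4 CPM in replicates 2 and 3. Relative to its group, long genes were low in that replicate 1. Without it the change in YKL-5-124 was higher for 4492 genes and lower for 3878. MKI67 was at 7.13, 30.7 and 37.0 CPM at 24 h in THZ1. Scaling moves every such difference: the median over all genes was 0.15 under TMM, and library totals added 1.03 and ribosomal protein scaling 2.33, giving 7917 higher and 1558 lower, and 11354 higher and 198 lower. The share of differences on the higher side was 53.9% under TMM, 83.6% and 98.3% under those scalings and 42.9% with upper-quartile factors. For each list below, the median difference is therefore also given minus the median of all genes; medians of change within a compound are under TMM.

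Mitotic genes differed between the compounds. Their median difference was 2.17 above that of all genes, with 48 of 56 higher and 2 lower in YKL-5-124, and their median change between times was -0.05 in YKL-5-124 and -2.38 in THZ1. NCAPH was at 42.5 ± 3.64 CPM at 24 h and 87.6 ± 5.52 at 4 h in YKL-5-124, and at 6.69 ± 2.70 CPM at 24 h and 78.4 ± 4.42 at 4 h in THZ1 (SD, n = 3 each), a difference of 2.5 ± 0.26 (SE). The replication list was lower at 24 h in both compounds (median -0.54 in YKL-5-124 and -1.15 in THZ1). Of its 50 genes, 25 differences were higher and 15 lower under TMM, beside 31.0% and 26.6% of all genes. The list's median difference was 0.53 above that of all genes. CDC45 went opposite ways under TMM, with a change of -1.70 in YKL-5-124 and 0.79 in THZ1. CDK7 itself was at 65.0 ± 10.5 CPM at 24 h and 54.8 ± 6.62 at 4 h in YKL-5-124, and at 5.03 ± 0.412 CPM at 24 h and 46.6 ± 8.11 at 4 h in THZ1 (difference 3.46 ± 0.23, adjusted p = 1.4e-08).

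Under TMM, short-lived transcripts rose with both compounds, and more in THZ1. Their median change was 0.94 in YKL-5-124 and 3.20 in THZ1, with 30 of 40 differences lower in YKL-5-124 and 2 higher; under ribosomal protein scaling 12 were lower and 13 higher, the list's median lying 2.26 below that of all genes under both scalings. JUNB was at 28.7 ± 8.09 CPM at 24 h and 7.03 ± 1.41 at 4 h in YKL-5-124, and at 508 ± 44.7 CPM at 24 h and 6.65 ± 1.67 at 4 h in THZ1 (difference -4.23 ± 0.32). BHLHE40, at 9.33 ± 0.198 CPM at 4 h in YKL-5-124 and 3.71 ± 0.158 at 4 h in THZ1, differed by -4.83 ± 0.13. Histone genes rose in both (median 1.85 in YKL-5-124 and 1.79 in THZ1), with a median difference 0.60 below that of all genes. Of the 28 histone genes, 7 differences were higher and 9 lower under TMM, beside 31.0% and 26.6% of all genes. Under ribosomal protein scaling 17 were higher and 0 lower.

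Of the 33 sterol and fatty acid genes, 16 differences were higher and 8 lower in YKL-5-124 under TMM, beside 31.0% and 26.6% of all genes, and 32 and 0 under ribosomal protein scaling; the median was 0.53 above that of all genes. HMGCS1 was at 224 ± 30.6 CPM at 24 h and 48.0 ± 3.64 at 4 h in YKL-5-124, and at 21.9 ± 3.61 CPM at 24 h and 60.1 ± 6.66 at 4 h in THZ1, a difference of 3.68 ± 0.20 (adjusted p = 1.9e-09). SQLE, squalene epoxidase, was at 254 ± 17.9 CPM at 24 h and 126 ± 13.3 at 4 h in YKL-5-124, and at 10.6 ± 0.539 CPM at 24 h and 119.8 ± 8.46 at 4 h in THZ1. CDKN1A rose in YKL-5-124 by 1.55 and had a change of -0.63 in THZ1, a difference of 2.19 ± 0.30. Ribosomal protein mRNAs had a median change of -0.60 in YKL-5-124 and 1.67 in THZ1 under TMM, with 79 of 83 differences lower and 3 higher and a median difference 2.43 below that of all genes; by construction ribosomal protein scaling removes this, with 14 lower and 25 higher. Their share of counts at 24 h was 7.93% ± 1.22 in YKL-5-124 and 22% ± 1.18 in THZ1. All 13 mitochondrially encoded mRNAs had lower changes in YKL-5-124 under TMM (median -0.16, against 1.92 in THZ1; the median difference was 2.23 below that of all genes), and 0 were lower and 1 higher under ribosomal protein scaling.

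**Figure D4:**
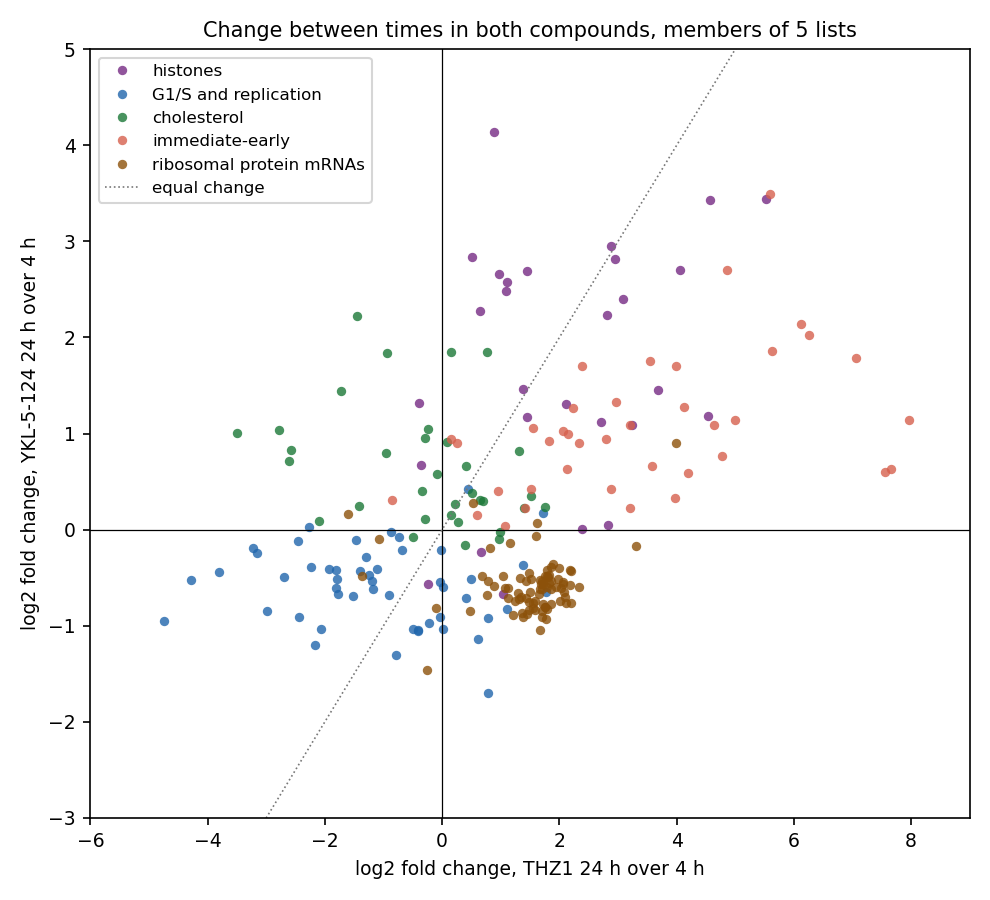
Log2 change between times (24 h over 4 h) in YKL-5-124 (y axis) against that in THZ1 (x axis) for members of 5 lists under TMM; points are genes and the dotted line marks equal change. Replication genes have medians of -0.54 on the y axis and -1.15 on the x axis, and histone genes 1.85 and 1.79. Short-lived transcripts have medians of 0.94 and 3.20, and ribosomal protein mRNAs have medians of -0.60 and 1.67. Ribosomal protein scaling shifts the points along both axes.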

How the data were processed

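Total RNA from PATU-8988T cells was sequenced at Novogene, per the labels' protocols. The authors deposited whole-number read counts per gene for 15 libraries in one table with gene annotation. The submitters' processing notes name the build GRCh38, the aligner STAR (2.6.1d), the counter featureCounts (version 1.5.0-p3) and DESeq2 (1.24.0), without settings, so strand and the treatment of multiply mapped reads are unknown. No spike-in is named, so every change is relative to the rest of the library.

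Counts were tested as deposited with edgeR 4.0.16 (R 4.3.3, limma 3.58.1): TMM scaling, filterByExpr (minimum count 10, minimum total 15), a quasi-likelihood fit of 5 groups over all 15 libraries, and Benjamini-Hochberg adjustment at 0.05 over the 14461 of 58676 genes that passed (30731 had at least 1 count; rows naming no gene numbered 0). CPM are TMM-scaled; SE are of log2 fold changes. The steps were run on simulated counts drawn with the fitted spread of each gene. Those counts held no shift that sets libraries of a group apart, so the run does not cover calls made under it. Alternatives were other scalings, filters, DESeq2 1.42.0, fewer groups, a replicate block, a length covariate, and leaving out libraries; leaving out both libraries that stand apart was chosen after seeing the data. Replicates differed by 4.19 to 52.5 chi-square units per degree of freedom, so none was a copy. The spread was uneven. At 24 h replicates 1 and 2 differed by 4.19, and from replicate 3 by 52.5 and 38.1. At 4 h replicates 2 and 3 differed by 8.16, and from replicate 1 by 41.1 and 37.2.

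Named genes were the 12 largest rises and 12 largest falls among called protein-coding genes at a mean of at least 5 CPM whose groups do not overlap, 3 each way among other biotypes, up to 3 called members each way per list at a mean of at least 1 CPM, CDK7 with its partners and related kinases, and the 4 largest differences each way between compounds; a few genes that meet these rules are not reported here. Other list members given with a value alone were read from the whole list after values were seen. The comparison and the gene lists were chosen with earlier results of these data known, so list counts are descriptions beside the share over all genes, with no test of the list. The ribosomal protein and small nucleolar RNA host lists were added after values were seen. Promoters are RefSeq's (GRCh38.p14), matched by symbol: 42 of 50 replication and 26 of 33 sterol genes had one.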

Additional observations from a re-analysis of the deposited data

Results flagged for a closer look

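The change between times was compared between the compounds in the interaction test of the same edgeR fit. The 4 largest called differences on each side are given, among protein-coding genes at a mean of at least 5 CPM over the libraries of both compounds. Positive differences in log2 were 4.93 for NLRP2, 4.73 for VANGL1, 4.5 for SQLE and 4.45 for PAFAH2, all of which were lower at 24 h than at 4 h in THZ1. NLRP2 was at 57.4 ± 1.89 CPM at 24 h and 42.3 ± 1.10 at 4 h in YKL-5-124, and at 1.85 ± 0.0797 CPM at 24 h and 41.7 ± 3.14 at 4 h in THZ1 (SD, n = 3 each). Negative differences were -9.07 for MROH8, -8.72 for PLCB1, -8.05 for FCRLB and -7.02 for KLF10. MROH8, PLCB1 and FCRLB passed the minimum level through the THZ1 libraries at 24 h alone, so the size and rank of their differences rest on low counts in the other groups. They were under 1 CPM on average at both times in YKL-5-124 and at 313 ± 87.4, 295 ± 121 and 132 ± 45.9 CPM at 24 h in THZ1. MROH8 overlaps another tested gene on the opposite strand, and the part of that neighbour's reads in its count was not tested. KLF10, an early response factor, was at 60.9 ± 12.8 CPM at 24 h and 39.2 ± 4.66 at 4 h in YKL-5-124, and at 2134 ± 368 CPM at 24 h and 10.6 ± 2.66 at 4 h in THZ1.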

How the results depend on the processing

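Between times, library totals gave 2286 higher and 1044 lower genes (198 lower by at least 2-fold), and ribosomal protein scaling 6763 and 131 (2807 and 48 by at least 2-fold), these scalings moving every gene by about the same amount. The length slope as a covariate gave 2595 and 3376. That slope averages 0 in each group, so the added calls come with less spread within groups and not with larger changes. A mean of at least 5 CPM, which tests fewer genes, gave 180 and 134 by at least 2-fold. Leaving out single libraries gave 878 to 1038 higher and 1205 to 1408 lower, and leaving out both libraries that stand apart 1020 lower. For the difference between compounds, library totals gave 7917 higher and 1558 lower, and ribosomal protein scaling 11354 and 198. RLE and upper-quartile factors, DESeq2, no filter and the groups compared alone kept all 6 counts within 1.5 times.

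Under ribosomal protein scaling 17 named genes that were lower turned positive in log2: MYBL2 0.094, SPC24 0.17, E2F3 0.051, BCL2L2 0.091, BCL2L13 0.28, IFITM3 0.063, IFITM2 0.20, ERAP1 0.16, CCNT1 0.27, HSP90AB1 0.035, HSPD1 0.14, HSPB1 0.13, ENO1 0.16, HK1 0.34, CD44 0.0084, GUSB 0.0596 and TUBB 0.30. With the replicate number as a block, 1684 genes were higher and 2148 lower. Deviations of same-numbered libraries correlated at 0.44, -0.30 and 0.33. Differently numbered libraries were not set beside them, so whether the numbers pair the libraries was not tested. At 3 libraries a group, genes at low counts limit what can be called.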
